A study of Mus musculus with 144 samples.

Results

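The 24 h comparison set cultured mouse primary hepatocytes given 10 nM TCDD (2,3,7,8-tetrachlorodibenzo-p-dioxin, the most potent dioxin) against hepatocytes given DMSO as the vehicle. Its members were the 16 RNA-Seq libraries labelled 24 h, 4 of the 36 groups of 4 libraries in the series, and were chosen by their labels alone: 4 WT vehicle (libraries P172_17 to P172_20), 4 WT TCDD (libraries P172_53 to P172_56), 4 PkmΔDRE vehicle (libraries P172_89 to P172_92) and 4 PkmΔDRE TCDD (libraries P172_125 to P172_128). All libraries came from male mice aged 28 days. WT mice were C57BL/6NCrl, and PkmΔDRE mice (Pkm-delta-DRE in the labels) carry a homozygous, whole-body CRISPR deletion of an intronic dioxin response element (DRE) in *Pkm*, so the lack of that element is not limited to hepatocytes. The labels name no animal and no hepatocyte isolation, so p-values measure only the spread between these libraries, which may be technical. The treatment was compared over both labels with the label as a covariate, and the comparison is given with and without library P172_20, a WT vehicle library that stood apart.

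TCDD acts through the aryl hydrocarbon receptor (AHR), a ligand-activated transcription factor. The bound receptor moves to the nucleus, pairs with ARNT and binds DREs, whose invariant core reads GCGTG. In liver it drives a well-known battery of drug-metabolizing genes: the cytochromes *Cyp1a1*, *Cyp1a2* and *Cyp1b1* of phase I, UDP-glucuronosyltransferases and the quinone reductase *Nqo1* of phase II, and the feedback inhibitors *Ahrr* and *Tiparp*.

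The bases ahead of the start sites of 5 of these genes are shown because the largest responses to TCDD were among them and because the first 3 differ in how many DRE cores the window holds. Each sequence is the 250 bases before the RefSeq start, written 5′ to 3′ on the strand of the gene (build GRCm38.p6), with each match to GCGTG on either strand, where it reads CACGC, in capitals.
*Ahrr* (chr13:74292332-74292581, minus strand): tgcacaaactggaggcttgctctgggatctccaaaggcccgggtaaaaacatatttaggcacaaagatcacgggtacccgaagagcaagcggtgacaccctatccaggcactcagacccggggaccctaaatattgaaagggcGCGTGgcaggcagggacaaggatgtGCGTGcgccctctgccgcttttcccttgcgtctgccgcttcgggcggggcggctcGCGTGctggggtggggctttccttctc
*Cyp1a1* (chr9:57697363-57697612, plus strand): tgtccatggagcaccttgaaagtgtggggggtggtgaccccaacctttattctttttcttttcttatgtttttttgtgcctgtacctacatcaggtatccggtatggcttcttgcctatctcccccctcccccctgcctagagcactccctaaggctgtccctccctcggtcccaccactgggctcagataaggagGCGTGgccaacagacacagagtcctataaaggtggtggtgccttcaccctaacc
*Cyp1a2* (chr9:57683656-57683905, minus strand): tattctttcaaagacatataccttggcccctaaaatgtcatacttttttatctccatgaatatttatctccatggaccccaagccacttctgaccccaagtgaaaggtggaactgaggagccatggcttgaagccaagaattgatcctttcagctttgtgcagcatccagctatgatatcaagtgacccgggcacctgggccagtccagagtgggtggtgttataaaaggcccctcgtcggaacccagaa
*Cyp1b1* (chr17:79715062-79715311, minus strand): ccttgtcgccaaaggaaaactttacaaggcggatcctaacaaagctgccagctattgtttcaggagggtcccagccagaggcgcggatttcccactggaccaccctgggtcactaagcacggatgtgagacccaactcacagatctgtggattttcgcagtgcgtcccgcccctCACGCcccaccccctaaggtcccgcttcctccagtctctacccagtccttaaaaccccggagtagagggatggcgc
*Tiparp* (chr3:65528197-65528446, plus strand): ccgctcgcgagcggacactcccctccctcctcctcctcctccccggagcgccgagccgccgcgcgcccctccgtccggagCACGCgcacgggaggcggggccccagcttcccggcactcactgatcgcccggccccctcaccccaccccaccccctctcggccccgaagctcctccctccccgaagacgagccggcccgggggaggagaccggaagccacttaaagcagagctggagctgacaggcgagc
The *Ahrr* window held 3 cores, those of *Cyp1a1*, *Cyp1b1* and *Tiparp* held 1 each, and that of *Cyp1a2* held 0. *Cyp1a1* and *Cyp1a2* lie head to head on chromosome 9 with 13958 bases between their starts, and the enhancer known for *Cyp1a1* lies farther upstream than these windows reach. A core this short is common: 32.4% of 32851 promoter windows in the RefSeq table (300 bases, 50 of them after the start) held it. Of the 30 genes called with or without library P172_20, 19 had a window in the table and 11 of these (57.9%) held the core in at least 1 window, against 5548 of 10091 tested genes with a window (54.98%). A match is a run of letters, not a binding site.

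Far more genes were called higher with TCDD than lower. Of 13668 genes tested, 28 (0.205%) passed an adjusted p-value under 0.05 with a fold change of at least 1.5, 27 of them higher with TCDD (0.198%) and 1 lower (0.00732%). Without library P172_20 the test ran on 14111 genes and again called 28 (0.198%), 27 higher (0.191%) and 1 lower (0.00709%). The calls with and without that library shared 26 genes. Of the 2 called only with it *Adh7* is given below, and *Por* and *Cyb5a* were called only without it. Values below are log2 fold changes of TCDD over vehicle with their standard error, from the quasi-likelihood test of edgeR on the deposited counts, with p-values adjusted by Benjamini-Hochberg over all genes tested. Levels are CPM, counts scaled to the TMM size of each library, and are given as the lowest, median and highest of the 8 libraries of a treatment.

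**Figure D1:**
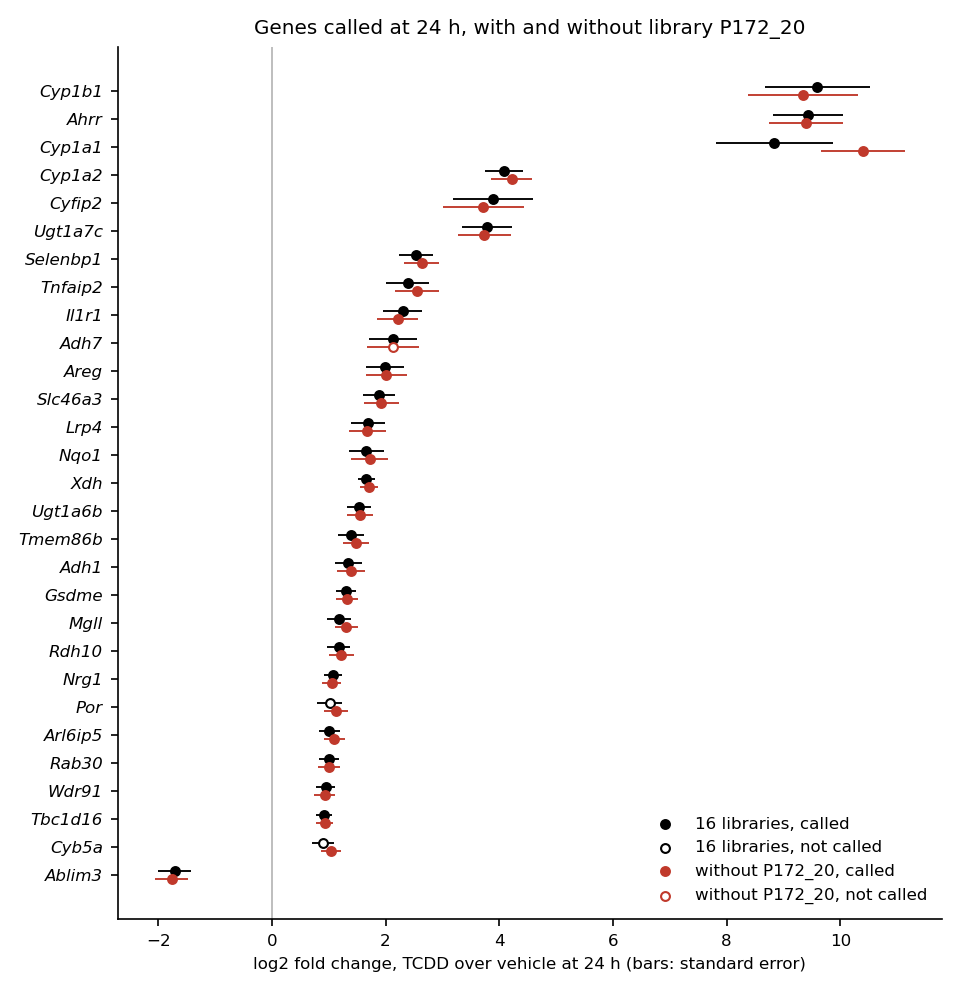
Log2 fold change of TCDD over vehicle at 24 h (x axis, bars are standard errors) for 29 of the 30 genes called with all 16 libraries (black) or without library P172_20 (red), with open symbols where a gene was not called. *Cyp1a1* moved most between the fits, from 8.84 to 10.39, and *Ablim3* was the only gene called lower. The fitted values of *Cyp1b1* and *Ahrr*, absent from most or all vehicle libraries, depend on the count that edgeR adds to 0.

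The libraries held 15887037 to 30719161 counts on genes. Pairs not counted on a gene (unmapped, multimapped, outside genes or ambiguous) took 18.2% to 29.8% of read pairs. Of the uniquely mapped pairs, 2.88% to 13.9% lay on no gene. Mitochondrial genes took 1.55% to 4.60% of gene counts. The first 2 principal components held 37.3% and 19.8% of the variance and did not separate the treatments over all 16 libraries. Within WT the treatments lay apart by a narrow margin. The WT vehicles were at -20.3 or above on the first component and the treated ones at -21.3 or below. On the second the WT vehicles were at 22.6 or above and the treated ones at 22.3 or below. Within PkmΔDRE the treatments mixed. On the first component, library P172_20 lay at 55 and the other WT vehicles between -20.3 and -17.3. The PkmΔDRE libraries were spread more widely, from -72.9 (P172_90) to 133.8 (P172_92) in vehicle and from -13.6 (P172_126) to 83.1 (P172_128) with TCDD. On the second, libraries P172_89, P172_90, P172_125 and P172_126 lay between -105.5 and -39.0 and the other 12 between 13.3 and 35. Library P172_92 decided more than library P172_20 did in the comparison of the labels, as given with it. Hepatocyte markers were strong in all libraries, with albumin (*Alb*) at 14911 to 38887 CPM.

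All 3 cytochromes of the CYP1 family rose. *Cyp1a1*, which oxidizes planar aromatic hydrocarbons, stood at 0.738, 1.97 and 57.7 CPM in the vehicle libraries and at 2845, 3579 and 8693 CPM with TCDD. The groups were far apart, and the vehicle value of 57.7 CPM was library P172_20, with the other 3 WT vehicles between 0.738 and 2.17 CPM. The log2 fold change was 8.84 ± 1.03 (adjusted p = 0.000208), and 10.39 ± 0.74 (adjusted p = 1.25e-06) without library P172_20.

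*Cyp1a2*, the constitutive hepatic member that oxidizes aromatic amines and binds TCDD, went from 35.04, 68.5 and 161 CPM to 842, 1263 and 1957 CPM, with no overlap. It rose by 4.08 ± 0.34 on the log2 scale (16.9-fold, adjusted p = 6.65e-06), the smallest adjusted p of the 28. *Cyp1b1*, a family member more typical of tissues outside the liver, was at 0 in 6 of the 8 vehicle libraries and at 0.215 CPM at most. With TCDD it stood at 2.17, 51.8 and 123.2 CPM. In libraries labelled WT, where every vehicle library was at 0, *Cyp1b1* was at least 3050-fold higher with TCDD, taking 3 counts over the 4 vehicle libraries as the floor.

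Of the feedback genes, *Ahrr* was called and *Tiparp* was not. *Ahrr*, the AHR repressor that competes for ARNT, had no count in any of the 8 vehicle libraries and stood at 1.19, 3.17 and 8.72 CPM with TCDD. Against a floor of 3 counts over the 8 vehicle libraries (0.0175 CPM) it was at least 249-fold higher (fitted adjusted p = 3.93e-05). *Tiparp*, a mono-ADP-ribosyltransferase that inactivates AHR, had 2.27, 10.3 and 36.3 CPM in vehicle and 18.3, 54.9 and 82.6 CPM with TCDD, and the groups overlapped. Its log2 fold change of 2.09 ± 0.48 did not pass (adjusted p = 0.134), and it was called under 4 of the 8 other settings, among them DESeq2 (adjusted p = 0.000612). The overlap came from the PkmΔDRE libraries, where the vehicle libraries P172_90 and P172_91 held 24.8 and 36.3 CPM and library P172_128, with TCDD, 18.3 CPM.

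**Figure D2:**
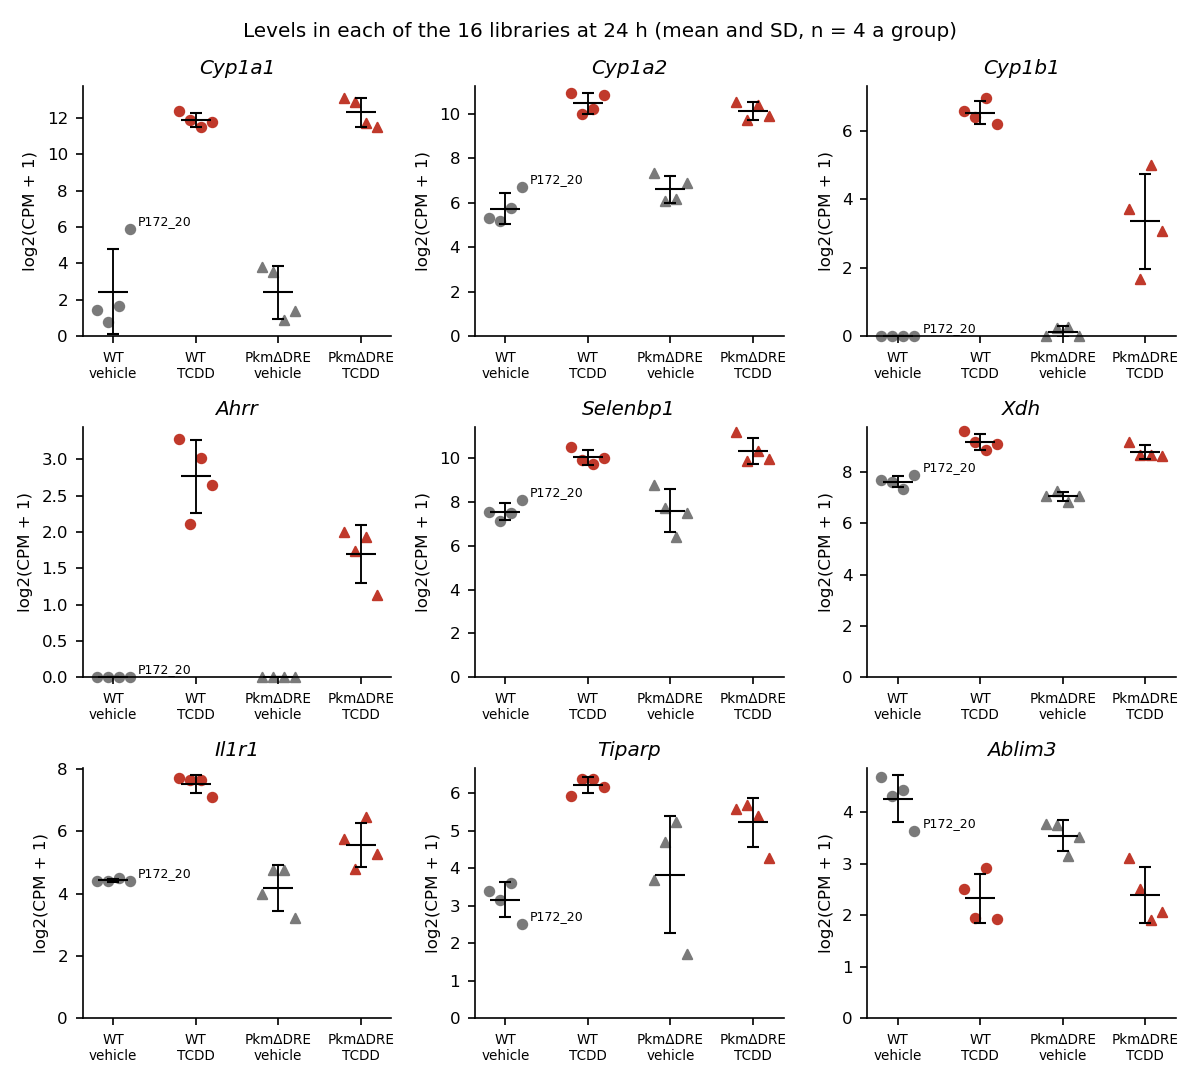
Levels of 9 genes in each library at 24 h, as log2(CPM + 1), by genotype label and treatment (circles WT, triangles PkmΔDRE, grey vehicle, red TCDD, horizontal bar and whiskers the mean and SD of 4 libraries). *Cyp1a1* in library P172_20 (marked) lies above the other vehicles, *Ahrr* is at 0 in all vehicles, and *Tiparp* overlaps only among PkmΔDRE libraries.

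*Ugt1a7c*, *Ugt1a6b* and *Nqo1*, enzymes of conjugation and quinone reduction, rose. *Ugt1a7c*, a UDP-glucuronosyltransferase, moved from 0, 0.585 and 1.06 CPM to 1.66, 6.59 and 17.5 CPM, with no overlap and a log2 fold change of 3.78 ± 0.44 (adjusted p = 0.000208). *Ugt1a6b*, which conjugates small phenols, moved from 5.14, 7.30 and 9.43 CPM to 11.7, 20.1 and 31.3 CPM, again without overlap, and rose 2.90-fold (adjusted p = 0.00189). The *Ugt1a* genes share their last exons, so the split of reads between them is uncertain. *Ugt1a6a* had a log2 fold change of 2.85 ± 0.82 at a vehicle median of 0.260 CPM and did not pass (adjusted p = 0.411). *Ugt1a5* (1.34 ± 0.29, adjusted p = 0.0903) and *Ugt1a9* (0.62 ± 0.26) did not pass either, and *Ugt1a1*, the bilirubin-conjugating member, had values of 2.44 to 7.35 CPM in vehicle and 3.67 to 8.31 CPM with TCDD.

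*Nqo1*, the NAD(P)H quinone reductase, stood at 8.31, 12.6 and 42.4 CPM in vehicle and at 21.3, 43.6 and 146 CPM with TCDD. The groups overlapped, also within PkmΔDRE (11.4 to 42.4 against 39.3 to 146 CPM), whereas within WT the vehicle libraries reached 13.8 CPM and the treated ones began at 21.3 CPM. It rose 3.16-fold (log2 1.66 ± 0.30, adjusted p = 0.0196). Of the 10 AHR target genes listed, 8 were tested and 6 were called, all higher, against 0.205% called of all genes tested. The median log2 fold change of the 8 was 3.46, against -0.04 over all genes tested. With *Cyp1b1* and *Ahrr* at their bounds the median of the 8 did not change. These 2 genes, at or near 0 in vehicle, and *Ugt1a6a*, with a vehicle median of 0.260 CPM, passed the filter through their treated libraries. The count and the median of the 8 thus rest partly on the response itself, and nothing further is read from them. *Aldh3a1* and *Cyp2s1* were under the filter, at no more than 0.145 and 0.861 CPM in any library.

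The electron donors of the cytochromes stood at the edge of the test. *Por*, the reductase that passes electrons to every microsomal cytochrome P450, held 517, 624 and 1306 CPM in vehicle and 1051, 1428 and 2577 CPM with TCDD. With all 16 libraries its log2 fold change was 1.02 ± 0.22 (adjusted p = 0.0697), and without library P172_20, whose 960 CPM exceeded the 517 to 590 CPM of the other WT vehicles, it rose by 1.13 ± 0.21 (adjusted p = 0.0366). *Cyb5a*, cytochrome b5, behaved likewise, with 0.90 ± 0.19 (adjusted p = 0.0712) and, without library P172_20, 1.03 ± 0.18 (adjusted p = 0.0138). Among the WT vehicles, library P172_20 was thus the highest in *Cyp1a1*, *Por* and *Cyb5a*, and also in *Cyp1a2*, at 104.6 CPM against 35.04 to 54.4 CPM. The PkmΔDRE vehicles P172_89 and P172_92 were higher still in *Por* (1234 and 1306 CPM) and *Cyp1a2* (161 and 117.5 CPM). In *Cyp1a1* and *Cyb5a* library P172_20 was the highest vehicle of both labels. *Ahrr* and *Cyp1b1* had no count in library P172_20.

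Of the called genes, 3 code for enzymes that oxidize alcohols or retinol. *Adh1*, the main hepatic alcohol dehydrogenase, moved from 67.8, 118.9 and 214 CPM to 188, 305 and 445 CPM, overlapping across labels though not within them, and rose 2.54-fold (adjusted p = 0.0140). *Rdh10*, a microsomal retinol dehydrogenase, moved from 13.7, 16.4 and 30.1 CPM to 29.6, 42.6 and 63.5 CPM (2.26-fold, adjusted p = 0.0176). *Adh7*, a retinol-active alcohol dehydrogenase of stomach, was low, at 0.541 to 2.83 CPM in vehicle and 2.85 to 17.2 CPM with TCDD. Its call (log2 2.13 ± 0.42, adjusted p = 0.0441) was lost without library P172_20 (adjusted p = 0.0981) and held in 5 of the 16 fits without 1 library. These 3 genes were named after their values were seen, and 2 further alcohol dehydrogenases, *Adh4* (log2 0.05 ± 0.16) and *Adh5* (0.10 ± 0.14), did not pass. None of the 9 tested members of the retinoid list passed, and their log2 fold changes lay between -0.71 and 0.12.

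Among genes known from earlier dioxin work, *Selenbp1*, a selenium-binding methanethiol oxidase, stood at 82.2, 183 and 438 CPM in vehicle and at 857, 1000 and 2315 CPM with TCDD. The groups did not overlap and the gene rose 5.80-fold (log2 2.54 ± 0.30, adjusted p = 0.000208). Its near-identical paralogue *Selenbp2*, with which it may share reads, stood at 139.9 to 787 CPM in vehicle and 94.5 to 556 CPM with TCDD (log2 -0.16 ± 0.30, adjusted p = 1.00). *Xdh*, xanthine dehydrogenase of purine breakdown and named after its values were seen, had the smallest standard error of the called genes after *Tbc1d16*. It went from 112.9, 156 and 231 CPM to 393, 501 and 775 CPM without overlap and rose 3.16-fold (log2 1.66 ± 0.15, adjusted p = 9.69e-06).

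*Slc46a3*, a lysosomal transporter, moved from 5.11, 8.81 and 11.5 CPM to 15.7, 23.5 and 64.3 CPM (3.69-fold, adjusted p = 0.00461). *Tnfaip2*, a gene first found as induced by tumour necrosis factor, moved from 1.45, 3.88 and 8.45 CPM to 10.3, 16.9 and 53.8 CPM (5.24-fold, adjusted p = 0.00514). Neither gene's groups overlapped. Of the 17 genes on this list, 16 were tested and 5 were called higher (4 without library P172_20), against 0.198% of all genes tested. The median log2 fold change of the 16 was 1.35. Some of the 16 passed the filter through their treated libraries, such as *Lekr1*, at 0.572 CPM at most in vehicle. The count and the median thus rest partly on the response itself, and nothing further is read from them. The list was drawn up with earlier results of these data known.

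Of the called genes, 4 code for receptors or for ligands of receptors. *Il1r1*, the signalling receptor for interleukin-1, stood at 8.39, 20.1 and 25.9 CPM in vehicle and at 26.4, 110 and 206 CPM with TCDD, the lowest treated library lying just above the highest vehicle library. It rose 4.93-fold (log2 2.30 ± 0.34, adjusted p = 0.00367). *Areg*, amphiregulin, a ligand of the EGF receptor, moved from 1.54, 2.32 and 3.73 CPM to 1.63, 11.5 and 16.9 CPM (log2 1.99 ± 0.33, adjusted p = 0.0111). Library P172_125, at 1.63 CPM, was the only treated library within the vehicle range.

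*Nrg1*, neuregulin 1, a ligand of ErbB receptors (also named after its values were seen), rose from 31.9, 43.7 and 61.7 CPM to 70.6, 87.2 and 138.3 CPM (log2 1.07 ± 0.16, adjusted p = 0.00344), without overlap. *Lrp4*, a co-receptor for agrin and inhibitor of Wnt signalling, moved from 5.45, 11.4 and 17.5 CPM to 13.8, 36.6 and 67.3 CPM (log2 1.69 ± 0.31, adjusted p = 0.0179), and libraries P172_127 and P172_128 held the 2 lowest treated values, 19.8 and 13.8 CPM. Both ligands and both receptors were higher in every treated library than the vehicle median, but for *Areg* in library P172_125.

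A further 7 called genes were named after their values were seen. *Rab30*, a Golgi GTPase, went from 11.2, 13.7 and 16.2 CPM to 20.8, 24.2 and 43.05 CPM (2.00-fold, adjusted p = 0.0155). *Tbc1d16*, a GTPase-activating protein for Rab proteins, went from 31.4, 40.2 and 48.97 CPM to 59.05, 72.4 and 94.7 CPM (log2 0.92 ± 0.14, adjusted p = 0.00461). Neither overlapped between treatments. *Wdr91*, which acts in endosome maturation (log2 0.95 ± 0.17, adjusted p = 0.0176), and *Arl6ip5*, an endoplasmic reticulum membrane protein (1.01 ± 0.18, adjusted p = 0.0185), did overlap.

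*Gsdme*, a gasdermin that forms pores in dying cells, moved from 6.52, 7.32 and 13.2 CPM to 14.6, 20.6 and 27.9 CPM (2.47-fold, adjusted p = 0.00189), without overlap. *Tmem86b*, a lysoplasmalogenase, moved from 10.7, 15.5 and 26.9 CPM to 29.2, 46.4 and 65.2 CPM (2.63-fold, adjusted p = 0.00752), also without overlap. *Mgll*, monoacylglycerol lipase, rose 2.26-fold (adjusted p = 0.0184) and overlapped only through library P172_20, whose 62.6 CPM exceeded the lowest treated value of 49.6 CPM.

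*Cyfip2*, of the WAVE complex that builds branched actin, was nearly absent in vehicle (0, 0.0577 and 0.779 CPM) and stood at 1.19, 2.44 and 11.2 CPM with TCDD (log2 3.89 ± 0.70, adjusted p = 0.0176). *Cyfip2* passed the filter through its treated libraries, so its test rests partly on the response itself. *Ablim3*, an actin-binding LIM protein, was the single gene called lower in the main test. It went from 7.85, 12.6 and 24.8 CPM to 2.74, 3.94 and 7.64 CPM, with no overlap and a log2 fold change of -1.71 ± 0.29 (adjusted p = 0.0111). Without library P172_20 it was -1.76 ± 0.29.

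Of the 28, 19 had no overlap between the 8 treated and 8 vehicle libraries, against 0.168% of all genes tested, and 20 had none without library P172_20, against 0.190%. The genes were called on these same libraries, so nothing is read from these counts or from those within each label. In the 16 fits that each left out 1 library, 19 of the 28 were called every time. The other 9 included *Adh7*, *Nqo1*, *Mgll*, *Wdr91*, *Arl6ip5*, *Rdh10*, *Lrp4* and *Cyfip2*, and all 9 lost the call without library P172_53, a WT TCDD library, where 19 genes were called.

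The response was then set within each genotype label, since the study asked whether the deleted *Pkm* element alters it. *Pkm*, pyruvate kinase M, stood at 36.3 to 192 CPM in WT vehicle, 42.7 to 137.9 CPM in WT TCDD, 80.97 to 298 CPM in PkmΔDRE vehicle and 304 to 484 CPM in PkmΔDRE TCDD. Only the last group was apart from the others. The log2 response was -0.04 ± 0.52 in libraries labelled WT and 1.35 ± 0.53 in those labelled PkmΔDRE, and the difference of -1.39 ± 0.74 did not pass (adjusted p = 0.842 in edgeR). The larger value was thus under the label whose element is deleted. Without libraries P172_20, P172_89 and P172_92 the difference was -2.11 ± 0.86 and did not pass either (adjusted p = 0.123 in edgeR). The paper proposes from its RNA-Seq a rise of total *Pkm* in WT hepatocytes over hours that include the one studied here. It reports no induction of the TCDD-responsive isoform in PkmΔDRE hepatocytes. The order of the values here was the reverse. A gene count does not show the deleted intronic element or tell the isoforms apart, so it cannot settle whether the genotype labels are right. That was not tested. Every value given for WT or PkmΔDRE rests on the labels alone.

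All 28 called genes had the same sign within both labels. Within WT, 27 of the 28 had no overlap between treated and vehicle libraries, against 8.23% of all genes tested, and within PkmΔDRE 23 had none, against 0.995%. A formal test of the difference in response between the labels called 0 of 13668 genes (0%), with 853 at an unadjusted p under 0.05, and DESeq2 also called 0. Of the 28, 17 were farther from 0 within WT and 11 within PkmΔDRE, and 4 had an unadjusted p under 0.05.

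Those 4 were *Il1r1*, *Cyp1b1*, *Wdr91* and *Cyp1a2*, each larger within WT. *Il1r1* averaged 20.4 ± 0.6 CPM in vehicle and 184 ± 33.1 CPM with TCDD in WT, against 18.7 ± 8.7 and 50.5 ± 25.9 CPM in PkmΔDRE (SD, n = 4 each). The vehicle levels were alike, and the treated levels ran from 134.5 to 206 CPM in WT and from 26.4 to 85.9 CPM in PkmΔDRE. The log2 response was 3.17 ± 0.38 in WT and 1.43 ± 0.36 in PkmΔDRE, a difference of 1.74 ± 0.50 (adjusted p = 0.795 in edgeR, the smallest of all genes).

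*Cyp1b1* reached 93.3 ± 21.9 CPM with TCDD in WT and 13.2 ± 12.6 CPM in PkmΔDRE (72.5 to 123.2 against 2.17 to 31.1 CPM). The fitted difference had an adjusted p of 0.795 in edgeR and rests on WT vehicles that are all at 0. *Wdr91* averaged 40.5 ± 3.3 CPM with TCDD in WT and 27.3 ± 3.8 CPM in PkmΔDRE from similar vehicle levels. *Cyp1a2* differed by 1.20 ± 0.53 on the log2 scale (4.68 ± 0.43 against 3.48 ± 0.41), with treated levels that overlapped and a higher vehicle level in PkmΔDRE (103.8 ± 44.6 against 58.1 ± 32.1 CPM). *Cyp1a1* had 7.95 ± 1.37 in WT against 9.74 ± 1.48 in PkmΔDRE, and this order turned without library P172_20, where the values were 11.23 ± 1.11 and 9.75 ± 0.91.

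The count of 0 differences depended on library P172_92. Without this PkmΔDRE vehicle library the test called 601 genes (4.27% of 14072), 600 of them higher in WT than in PkmΔDRE, and leaving out libraries P172_20, P172_89 and P172_92 together it called 1220 (8.32% of 14656), 1075 higher in WT. Among the 28 genes only *Il1r1* was called in either fit, at 1.97 ± 0.44 (adjusted p = 0.0272) without library P172_92. *Tiparp*, outside the 28, also passed without library P172_92, at 2.46 ± 0.52 (adjusted p = 0.0272), its level in WT going from 8.31 ± 2.76 to 73.9 ± 10.9 CPM. In library P172_92 itself *Tiparp* and *Il1r1* were the lowest of the 16 libraries, at 2.27 and 8.39 CPM.

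**Figure D3:**
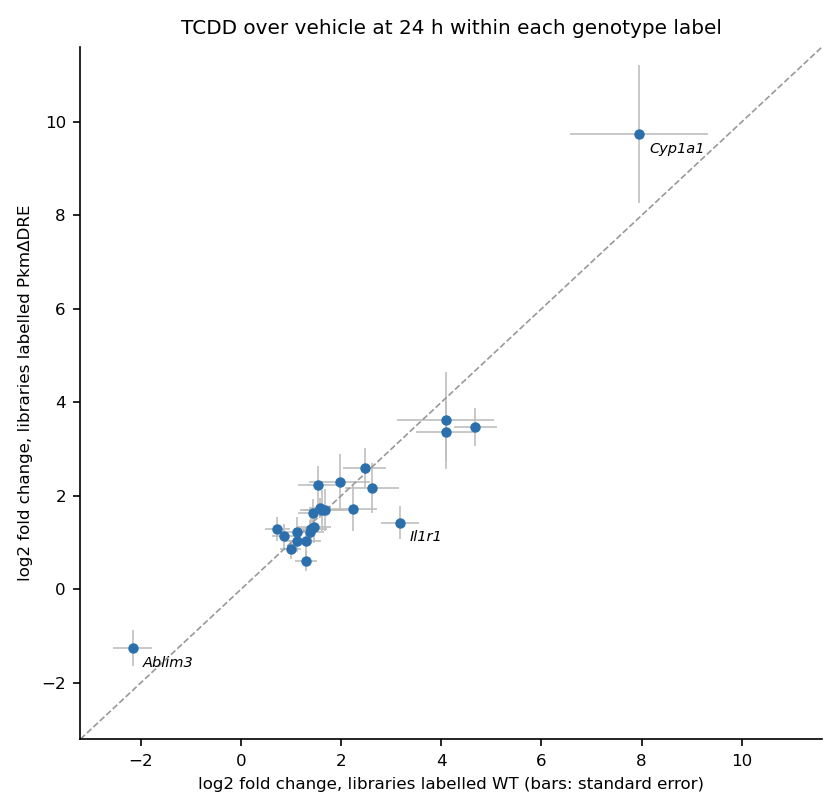
Log2 fold change of TCDD over vehicle within libraries labelled WT (x axis) and PkmΔDRE (y axis), with standard errors, for 25 of the 28 called genes, without *Ahrr* and *Cyp1b1*, whose WT vehicles are at 0; the dashed line marks equal responses. *Il1r1* lies below the line (3.17 against 1.43) and *Cyp1a1* above it (7.95 against 9.74), an order that turned without library P172_20.

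The same treatment was set beside its neighbours in time, 12 h and 48 h, each fitted on its own 16 libraries. At 12 h 27 of the 28 genes were tested and all 27 had the sign they had at 24 h. At 48 h all 28 were tested and all 28 had that sign. Of the 27, 22 were nearer to 0 at 12 h than at 24 h, and of the 28, 17 were farther from 0 at 48 h. The genes were chosen by their 24 h values, which favours larger values at that time.

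No gene passed a test of the change in response between neighbouring times. It called 0 of 14652 genes (0%) for 24 h against 12 h, with 0.976% at an unadjusted p under 0.05, and 0 of 14840 (0%) for 48 h against 24 h, with 0.991%. Both shares lie below what would be expected with no change at all, so the test was conservative. Its 0 calls thus do not show that the response stayed the same. DESeq2 called 3 and 2. Among the 28 genes, 10 and 4 had an unadjusted p under 0.05.

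*Ugt1a6b* had a log2 fold change of 0.46 ± 0.16 at 12 h, 1.54 ± 0.21 at 24 h and 2.42 ± 0.45 at 48 h. *Rdh10* had 0.27 ± 0.17, 1.17 ± 0.21 and 1.66 ± 0.28 in the same order. The values of both genes were larger at each later time.

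*Adh1* had 0.52 ± 0.24 at 12 h, 1.35 ± 0.23 at 24 h and 2.54 ± 0.58 at 48 h, and *Adh7* 0.69 ± 0.19, 2.13 ± 0.42 and 4.21 ± 0.62. *Xdh* had 1.03 ± 0.13 at 12 h, 1.66 ± 0.15 at 24 h and 1.72 ± 0.23 at 48 h. *Rab30* ran the other way, with 1.53 ± 0.17, 1.00 ± 0.18 and 0.37 ± 0.15, and *Mgll* had 1.11 ± 0.22, 1.18 ± 0.21 and 0.37 ± 0.20. None of these steps passed adjustment (smallest adjusted p over all genes 1.00 in both edgeR tests).

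**Figure D4:**
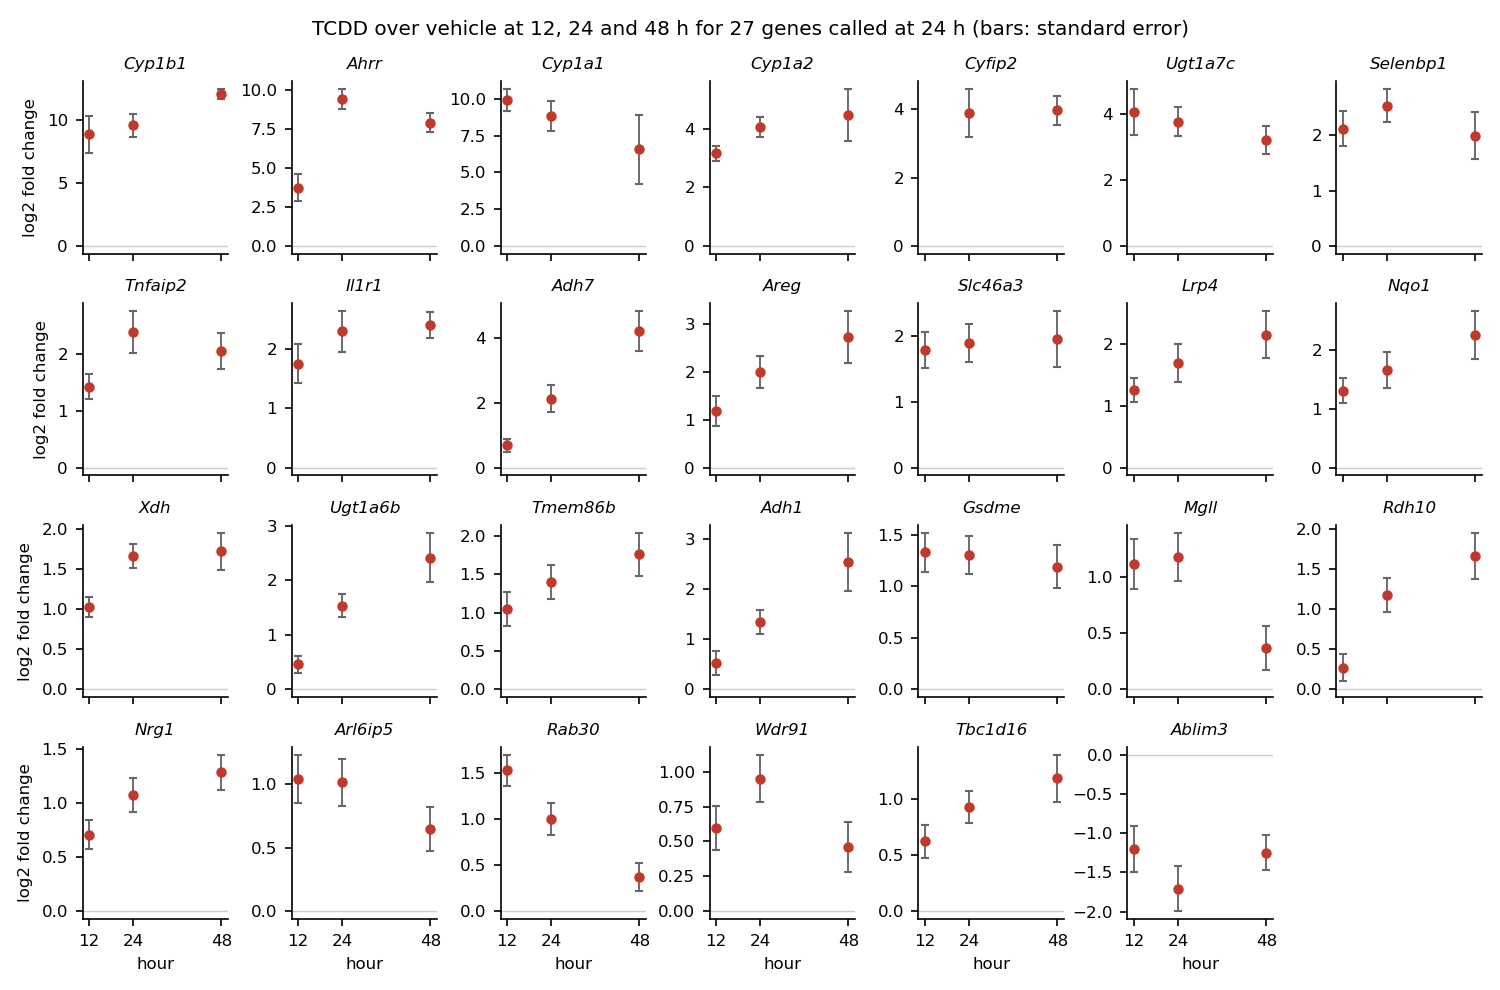
Log2 fold change of TCDD over vehicle (y axis, bars are standard errors, scales differ between panels) at 12, 24 and 48 h for 27 of the 28 genes called at 24 h. Values for *Adh7*, *Adh1* and *Ugt1a6b* are larger at each later time and those for *Rab30* smaller (1.53, 1.00 and 0.37); *Cyfip2* was not tested at 12 h, and the fitted values of *Ahrr* and *Cyp1b1* depend on the count added to 0.

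The other pathways listed held no called gene. With 0.205% called of all genes tested, lists this short are likely to hold 0. Nothing is read from the counts of calls, signs or unadjusted p-values in these lists, here or below. The AHR itself and 10 of its partners gave a median log2 fold change of -0.12, with *Ahr* at 29.8 CPM (median) in vehicle and 19.5 CPM with TCDD (-0.66 ± 0.34, adjusted p = 1.00). The NRF2 and glutathione list, the oxidant defence genes, had 27 of 30 members above 0, 7 with an unadjusted p under 0.05, and a median of 0.35 against -0.04 for all genes, and 0 called. Its largest value was that of *Gsta4*, a glutathione transferase (1.06 ± 0.30, adjusted p = 0.382).

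The lists of central carbon metabolism held no called gene. The median log2 fold change was -0.07 over 26 glycolytic genes, 0.06 over 10 genes of the pentose phosphate pathway, 0.03 over 21 genes of the TCA cycle and -0.06 over 16 genes of serine and one-carbon metabolism, with 0 called in each. Gluconeogenesis had -0.24 over 10 genes, with *Pck1*, its rate-controlling kinase, at 4.33 CPM (median) in vehicle and 1.57 CPM with TCDD (-1.06 ± 0.35, adjusted p = 0.697). Lipogenesis and sterol synthesis (0.03 over 24 genes), bile acid synthesis and transport (-0.02 over 15) and heme and iron (0.04 over 15) also held no call.

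Fatty acid uptake and oxidation (median -0.02 over 24 genes) held no call, though *Vldlr*, the very low density lipoprotein receptor, stood at 4.59, 9.86 and 28.1 CPM in vehicle and 19.6, 52.1 and 74.8 CPM with TCDD (1.92 ± 0.40, adjusted p = 0.0573). Growth hormone and IGF genes had 8 of 9 values below 0 and a median of -0.45. *Socs2*, a growth hormone target and feedback inhibitor, had -1.52 ± 0.64 (adjusted p = 1.00). Tryptophan and NAD genes had a median of -0.18, where *Acmsd*, which steers tryptophan carbon away from NAD, had -1.15 ± 0.29 (adjusted p = 0.217). The 29 other P450 genes had a median of -0.15, the acute phase genes 0.03 over 17, the cell cycle genes -0.15 over 20, the clock genes 0.06 over 13 and the retinoid genes -0.11 over 9, with 0 called in each.

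**Figure D5:**
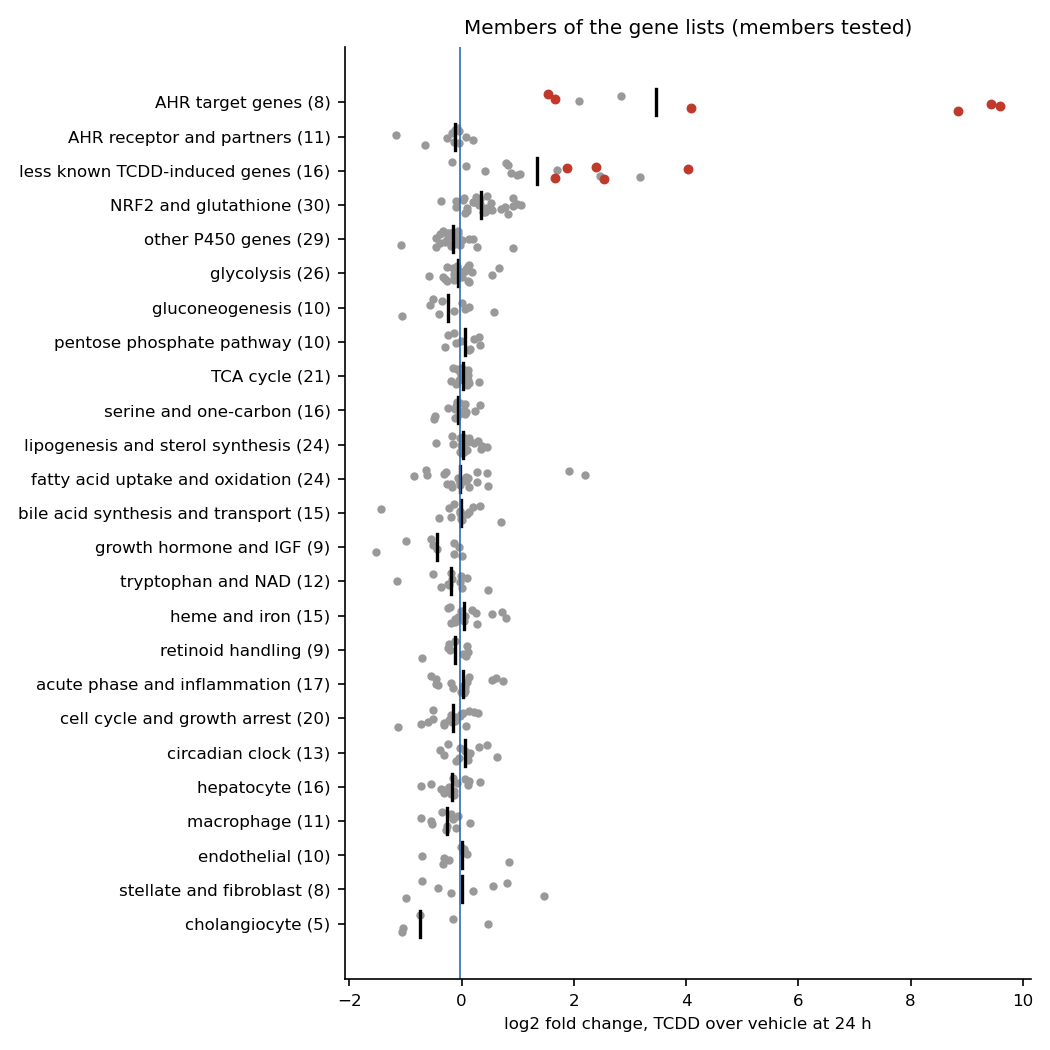
Log2 fold change of TCDD over vehicle at 24 h for the tested members of 25 gene lists (points, red where called), with the list median (black bar) and the median of all genes tested (blue line, -0.04). Called genes lie only in the AHR target list (6 of 8 tested) and in the list of less known TCDD-induced genes (5 of 16). Over all genes tested 0.205% were called.

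Markers of other liver cells were present at low levels and overlapped between treatments. The summed level of 12 macrophage markers ran from 76.8 to 368 CPM in vehicle and from 97.4 to 313 CPM with TCDD, that of 10 endothelial markers from 133.7 to 592 and from 115.4 to 569 CPM. For 10 stellate cell and fibroblast markers the range was 13.2 to 31.4 and 17.8 to 46.8 CPM, and for 8 cholangiocyte markers 15.5 to 157 and 20.9 to 115.8 CPM. No marker list had all genes at 0, and markers under 1 CPM in every library numbered 1, 0, 2 and 3 in that order. The hepatocyte sum over 16 genes ran from 31590 to 42592 CPM in WT vehicle and 25213 to 33145 CPM in WT TCDD, and from 36058 to 49798 and 38940 to 49984 CPM in the same groups of PkmΔDRE, and 12 of its 16 genes had a log2 fold change below 0. No marker was called in the main test. *Reln*, a stellate cell marker, had the largest marker value, 1.47 ± 0.34 (adjusted p = 0.129 in edgeR), and was called under 4 of the 8 other settings. Of the 8 tested stellate cell and fibroblast markers, 4 were above 0 and 4 below. Below 0 were also 10 of 11 tested macrophage markers, 5 of 10 endothelial markers and 4 of 5 cholangiocyte markers. The median of all genes tested was -0.04. The part of these cells in the called genes was not tested. In such bulk libraries fewer cells of a type and less RNA per cell cannot be told apart.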

How the data were processed

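RNA was taken from primary hepatocytes of the 16 libraries labelled 24 h, with 12 h and 48 h libraries as neighbours in time. Per the labels (the submitters' processing notes), the authors checked reads with FastQC 0.11.3, trimmed with Trimmomatic 0.39 and mapped pairs with STAR 2.7 to GRCm39. The deposited values are raw counts of uniquely mapped pairs per gene, not normalized, for 55359 genes, of which 52083 got a symbol here. The unstranded count was used, as strand 1 held 50.4% to 50.8% of stranded counts, so overlapping and antisense genes cannot be separated. Lines that name no gene, 18.2% to 29.8% of pairs, were left out. The labels and the protocol give different plate formats. No pair of libraries held identical counts.

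Counts were scaled by TMM and filtered by filterByExpr (count minimum 10, total minimum 15). The robust quasi-likelihood test of edgeR 4.0.16 (R 4.3.3) was fitted on all genes with treatment and genotype label, an interaction for the labels, and hour by treatment for neighbouring times. A call needs an adjusted p under 0.05 and a 1.5-fold change. Standard errors are those implied by the test. The script was tested on simulated data. A fold against vehicle libraries all at 0 uses a floor of 3 counts over the group, which covers counting error only.

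Genes were named as the 12 largest changes in each direction called with and without library P172_20, and as called members of the lists (up to 4 a list), the AHR target genes and *Pkm*; others are said to be named after their values were seen, as were *Por* and *Cyb5a*, and members of lists given without a call. The members and lists were chosen with earlier results of these data known. The alternatives were RLE scaling, DESeq2 1.42.0, no filter, no fold threshold, no label covariate, a covariate for pairs outside genes, and leaving out each library. Others were a posterior probability from limma 3.58.1 (threshold 0.8) and 1 surrogate variable from sva 3.50.0 as a covariate in edgeR. Leaving out libraries P172_20, P172_89 and P172_92 together was added after seeing the data. Promoter windows are from RefSeq on GRCm38.p6, and the files' build was not mixed with it. The windows of *Xdh*, *Ugt1a6b*, *Nrg1*, *Tbc1d16*, *Ablim3*, *Rab30*, *Rdh10*, *Lrp4*, *Arl6ip5* and *Cyb5a* were not used here. 1 called gene is included in the counts and is not reported here.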

Additional observations from a re-analysis of the deposited data

Results flagged for a closer look

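Each group of 4 libraries was examined for a library far from the other 3 (by Dixon's ratio of the gap to the range, for 4 values) for the 35 genes given by name in the main comparison. Of 140 groups, 13 held such a library, where chance alone gives about 1 in 20.

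Library P172_20 was flagged for *Cyp1a1* (57.7 CPM, other WT vehicles 0.738 to 2.17) and *Por* (960 CPM, others 517 to 590). Library P172_125 was flagged for *Tnfaip2* (53.8 CPM, others of its group 10.3 to 16.2) and *Xdh* (571 CPM, others 393 to 400). *Cyfip2* was high in library P172_90 (0.435 CPM, others 0 to 0.0538) and in library P172_53 (11.2 CPM, others 2.81 to 3.89). *Il1r1* was low in library P172_56 (134.5 CPM, others 197 to 206). *Arl6ip5* stood apart in 3 groups: high in library P172_92 (448 CPM, others 247 to 276), low in library P172_126 (583 CPM, others 793 to 824) and low in library P172_55 (445 CPM, others 660 to 688). *Cyb5a* was low in library P172_91 (251 CPM, others 551 to 555), *Pkm* was low in library P172_126 (304 CPM, others 470 to 484), and *Cyp2s1* was high in library P172_56 (0.861 CPM, others 0 to 0.113). The called genes among these kept their sign in every fit that left out 1 library.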

How the results depend on the processing

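No paired analysis was possible because the labels give no replicate number, animal or isolation that ties a treated library to a vehicle library. The count of 28 genes at 24 h became 81 (73 higher) with DESeq2 and 64 (58 higher) with 1 surrogate variable, and without library P172_20 70 and 59. The other settings gave 27 to 39 and, without library P172_20, 24 to 34. Leaving out 1 library in turn gave 19 (without library P172_53) to 36 (without library P172_90), and leaving out libraries P172_20, P172_89 and P172_92 together gave 32 (27 higher), of which 22 were among the 28. All 28 genes were called by DESeq2, with RLE scaling, without the filter and with the surrogate variable. No named gene reversed: over all settings 749 values kept their side of the threshold, 50 lost it and 26 gained it. The difference between labels gave 0 under every other setting but for the 0 to 601 genes of the fits without 1 library (601 without library P172_92) and the 1220 without libraries P172_20, P172_89 and P172_92. The changes in response between hours gave 0 but for DESeq2, which called 3 genes for 24 h against 12 h (*Gm13740*, *Cacng1* and *Gm9315*, none tested by edgeR after the filter) and 2 for 48 h against 24 h (*Gm38368* and *Gm7962*). The cause of these differences was not tested. *Ugt1a6a* was low, with a vehicle median of 0.260 CPM, and the part of depth in its result was not tested.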

Other observations

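Several genes just outside the 28 were called under other settings and were named after their values were seen. *Ripply1*, a transcriptional corepressor of somite formation, had a log2 fold change of 2.25 ± 0.46 (adjusted p = 0.0530) and was called under 5 of the 8 other settings, as was *Vldlr*. *Dll1*, a Notch ligand (1.97 ± 0.44), *Entpd2*, an ectonucleotidase (1.41 ± 0.31), *P2rx4*, an ATP-gated channel (0.65 ± 0.14), *Gstp2*, a glutathione transferase with a near-identical neighbour (1.61 ± 0.33), and *Reln*, reelin (1.47 ± 0.34), were each called under 4, with adjusted p-values of 0.0573 to 0.129 in the main test of edgeR.

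Without libraries P172_20, P172_89 and P172_92, 10 further genes were called, and 4 of them were lower with TCDD: *Bicc1*, an RNA-binding protein (-1.64 ± 0.30), *Grk5*, a G protein-coupled receptor kinase (-1.01 ± 0.18), *Cldn1*, a tight junction claudin (-0.84 ± 0.16), and *Rras2*, a Ras-related GTPase (-0.70 ± 0.13). *Pmm1*, a phosphomannomutase, was 1.64 ± 0.24 in that fit.

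Within the PkmΔDRE TCDD group, libraries P172_125 and P172_126 were higher than P172_127 and P172_128 in several genes. *Nqo1* held 146 and 122.3 CPM against 39.3 and 47.9 CPM, *Cyp1a1* 8693 and 7405 against 3356 and 2854 CPM, and *Lrp4* 59.4 and 44.6 against 19.8 and 13.8 CPM. *Cyp1b1* did not follow that order, with 12.1 and 2.17 against 31.1 and 7.41 CPM. On the second principal component libraries P172_125 and P172_126 lay at -47.6 and -64.1 and libraries P172_127 and P172_128 at 13.3 and 17.2. The labels do not name what sets these libraries apart.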
